A study of Mus musculus with 96 samples.

Results

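Matricellular proteins are secreted into the extracellular matrix and act mainly on cell adhesion and signalling instead of carrying load. This account follows 10 such genes or close partners of them (Thbs1, Thbs2, Fn1, Sparc, Spp1, Ccn1, Ccn2, Postn, Tnc and Fbn1) out of 40202 genes listed for each cell. They were selected with the ratio of treated to control cells already known, so their ratios are given as a description and are not evidence that the group stands apart. The data are 96 libraries, each from 1 sorted cell of C10, a mouse lung line whose labels call it alveolar type II epithelial. All cells were grown in RPMI medium with 10% FBS and L-glutamine. In 48 libraries the treatment label is none (control), and in 48 it is RO-3306, which the protocol text spells R03306 and gives at 10 nM for 36 h before sorting. The dose is as the protocol text prints it, and the files cannot show whether the unit is right. RO-3306 is marketed to block CDK1, the mitotic entry kinase. The labels name no culture, passage or clone, so each treatment was 1 sample and no test was made. Intervals of levels cover counting error only. Intervals of shares of cells treat the cells as independent draws. Neither kind covers differences between cultures. Each title has a letter (A, B, C or D) and a number. What they stand for is not given, and values are shown by letter for both groups.

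Thrombospondin 1 and 2 are large multimeric glycoproteins that bind CD47, integrins and heparan sulphate, and thrombospondin 1 can release active TGF-beta from its latent complex. Fibronectin is assembled into fibrils by cells through the integrin made of Itga5 and Itgb1. CCN1 and CCN2 are cysteine-rich adhesion proteins encoded by immediate early genes, known targets of the YAP-TEAD and SRF transcription factors. SPARC and periostin bind collagens, osteopontin (Spp1) is a ligand of CD44 and of integrins that contain Itgav, tenascin-C modulates adhesion to fibronectin, and fibrillin 1 builds the microfibrils that hold latent TGF-beta. In lung these genes are mostly associated with fibroblasts and with repair and fibrosis, and osteopontin also with macrophages.

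A cell was kept from 50000 counts and 1000 detected genes upward. This left 29 control cells (10, 8, 6 and 5 in letters A to D) and 37 RO-3306 cells (10, 10, 11 and 6). The shallowest kept control cell had 59979 counts and the deepest control library left out had 47767 counts and 503 genes. The shallowest kept RO-3306 cell had 295005 counts, and the deepest RO-3306 library left out had 773537 counts but 943 genes. Median totals of kept cells were 1753427 counts in control and 2234309 in RO-3306, and the summed counts were 66034079 and 92828839. The median mitochondrial share was 3.40% and 4.42%, and 1 kept RO-3306 cell, B3, had 56.0%. Levels are counts per 1e6 counts (CPM) of summed counts, with exact Poisson 95% intervals. The ratio is log2 of RO-3306 over control after adding 1 CPM to both, so the change of low genes is understated. Other scalings of the totals would add about 0.21 (TMM) or 0.24 (DESeq2 size factors) to every pooled log2 ratio, so a pooled ratio just below 0 has no settled sign. The shift was computed on the pooled groups only and is a rough guide for letters. The median of all genes ran from -0.26 in letter B to 0.41 in C, so a shift by letter may differ in size and sign.

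The label was checked against marker genes. Of 10 alveolar type II markers, 5 had no count in any kept cell (Sftpa1, Sftpc, Sftpd, Slc34a2 and Napsa), and 2 reached a mean of 5 CPM (Abca3 and Lpcat1). None of 6 epithelial markers reached it, and Krt18 and Cldn4 had no count. Napsa shares 47.8% of its span with another gene, where reads may go uncounted, but the other 4 silent type II genes share none or 0.0134%. Of 10 fibroblast and mesenchymal markers 9 reached 5 CPM, with Vim at 2427 CPM in control. Their summed level per cell ran from 1093 to 11326 CPM in control and from 1056 to 9067 CPM in RO-3306. The transcripts thus did not match the label's cell type, and the cells are called C10 cells here.

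Promoter sequence could be shown for 7 of the 10 members, from RefSeq windows on GRCm38.p6. There was no entry for Thbs1, Fn1 or Ccn2. Windows ran from 250 bases before to 50 bases after an annotated start. They were searched on both strands for CATTCC, the core bound by TEAD factors, for TGANTCA, the AP-1 site, for the CArG box bound by SRF, and for CAGACA, a SMAD element. The 2 stretches printed are the 250 bases before the start of Ccn1 and Sparc, the members with an entry that were at least 2-fold lower in RO-3306 in the pooled cells and lower in all 4 letters. They read 5′ to 3′ along the gene's strand, which is minus for both, and capitals mark a match.
Ccn1, chr3:145649986-145650235: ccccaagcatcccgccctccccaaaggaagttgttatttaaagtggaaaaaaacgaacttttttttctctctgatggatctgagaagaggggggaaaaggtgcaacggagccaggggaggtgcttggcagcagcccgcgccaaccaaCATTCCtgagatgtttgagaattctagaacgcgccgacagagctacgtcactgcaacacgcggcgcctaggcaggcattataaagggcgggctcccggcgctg
Sparc, chr11:55420081-55420330: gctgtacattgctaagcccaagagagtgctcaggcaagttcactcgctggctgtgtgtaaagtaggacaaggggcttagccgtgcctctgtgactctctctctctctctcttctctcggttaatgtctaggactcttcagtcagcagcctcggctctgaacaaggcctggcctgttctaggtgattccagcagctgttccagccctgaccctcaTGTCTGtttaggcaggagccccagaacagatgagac

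Ccn1 held 1 TEAD core, at bases -103 to -98 from the start. It was the only member window with that motif, which occurs in 14.7% of the 32851 promoter windows. Sparc held the SMAD element on the other strand at -36 to -31, printed as its reverse complement TGTCTG, and once more just after the start, at 15 to 20. Spp1, Thbs2 and Tnc windows also held it, against 21% of all windows. No member window held the AP-1 site (7.81% of all windows) or the CArG box (1.63%). A match is a description of letters and says nothing of binding in these cells.

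All 8 members that reached a mean of 5 CPM had a log2 ratio below 0 in RO-3306 cells, and the other two, Thbs2 and Tnc, were at or near 0 counts. The 8 ratios had a median of -1.74, beside -0.22 over all 9374 genes of at least 5 CPM (quartiles -0.98 and 0.43). A ratio below 0 was thus also the commoner sign among all genes. At least 2-fold lower (a log2 ratio at or under -1) were 6 of the 8, namely Thbs1, Ccn2, Ccn1, Fn1, Sparc and Fbn1, where the background over all genes was 24.2%. Of these, 3 were also lower in all 4 letters, Thbs1, Sparc and Ccn1 (background 6.43%). For Thbs1 this rests on a log2 ratio of -0.09 in letter A, which is smaller than the shift between scalings and so has no settled sign, and without it the number is 2. No member was at least 2-fold higher (background 12.2%). Since the members were chosen on this contrast, these counts describe the selection.

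Within the letters the picture was uneven. The median of the 8 members was -0.56 in A, -2.01 in B, -2.30 in C and -1.34 in D. The median of all genes was -0.08, -0.26, 0.41 and 0.24. In letter A 5 of the 8 members were below 0, in B 8, in C 7 and in D 6, where 52.7%, 57.4%, 39.98% and 41.8% of all genes were below 0. The count in A is thus near that of all genes, but Fn1 and Fbn1, above 0 there, lean on 1 shallow RO-3306 cell, A11. That cell held 3413 of the 7412.5 Fn1 counts and 698.5 of the 952.5 Fbn1 counts of RO-3306 letter A. Of the Thbs1 counts it held 486 of 2043.5. Ratios of letter A without A11 were not computed. The smallest differences thus fell in letter A for Thbs1, Fn1 and Sparc, which is also where the control level of Thbs1 was lowest.

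**Figure D1:**
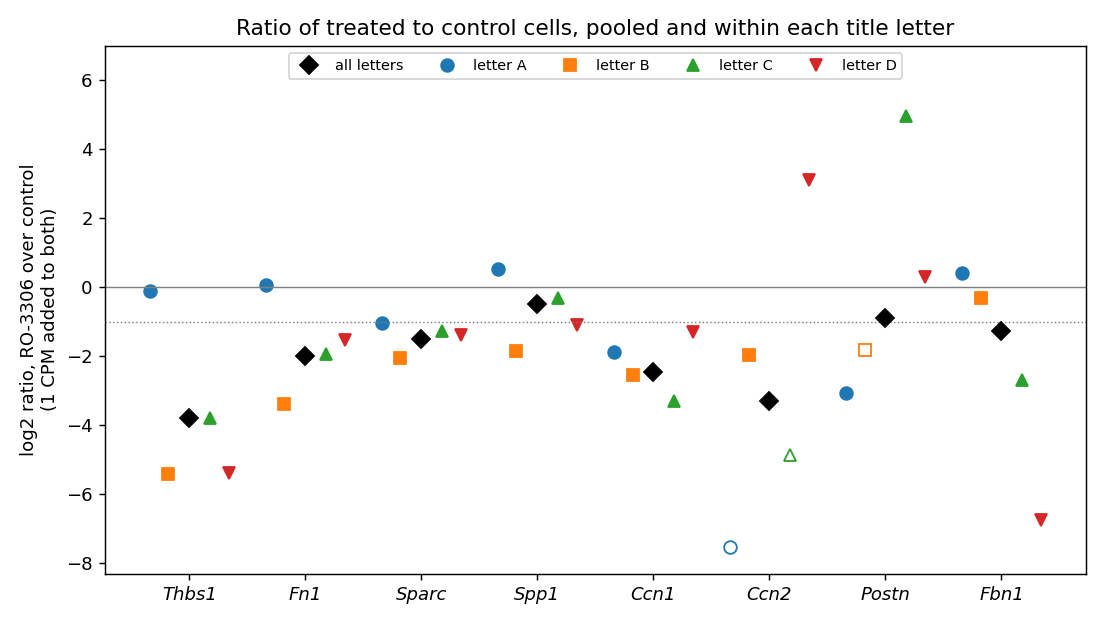
Log2 ratio of RO-3306 over control CPM (y axis, 1 CPM added to both) for the 8 members of at least 5 CPM (x axis). Diamonds are pooled over letters, the other symbols are letters A to D, open symbols mark a letter whose RO-3306 cells had no count, and the dotted line is 2-fold lower. The pooled values run from -0.48 for Spp1 to -3.77 for Thbs1, and Sparc and Ccn1 keep to one side of 0 with the narrowest spread.

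Thbs1 (chromosome 2, 117942357 to 117957614 on GRCm39, plus strand) had the lowest ratio of the members. Its level was 569.6 CPM in control (564 to 575) and 40.7 CPM in RO-3306 (39.5 to 42.1), which is 14-fold lower (13.5 to 14.5) and a log2 ratio of -3.77. Its ratio ranked 83 from the lowest among the 9374 genes of at least 5 CPM, and 3 from the lowest among the 3702 genes with a mean of 50 CPM or more. Thbs1 was chosen on this contrast and reached a mean of 50 CPM only through its control level, so the ranks describe the selection. By letter, control stood at 124 CPM in A, 1107 in B, 481 in C and 283 in D. The RO-3306 values were 116, 24.9, 34.2 and 5.74 CPM. Letters B, C and D were thus far lower under RO-3306, with log2 ratios of -5.42, -3.78 and -5.40, while letter A showed -0.09, which is smaller than the shift between scalings.

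Single cells were widely spread. In control B the lowest, median and highest cells had 2.08, 429.8 and 2505 CPM of Thbs1, and in RO-3306 B they had 0, 0.241 and 181. In control C they had 2.68, 513 and 1174 CPM, against 0, 0 and 284 in RO-3306 C. In control D they had 2.88, 192 and 608 CPM, against 0, 0 and 29.5. In letter A they had 0, 8.74 and 629 CPM in control and 0, 39.6 and 943 in RO-3306. The groups overlapped in every letter, since each control letter also held cells with little Thbs1. Over all letters the median control cell had 192 CPM and the median RO-3306 cell 0.300 CPM.

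The share of cells with Thbs1 was read at several limits. Cells at or over 100 CPM, a limit chosen after the values were seen, were 15 of 29 in control (51.7%, exact binomial interval 32.5% to 70.6%) and 5 of 37 in RO-3306 (13.5%, 4.54% to 28.8%). By letter they were 2 of 10, 5 of 8, 5 of 6 and 3 of 5 in control, and 3 of 10, 1 of 10, 1 of 11 and 0 of 6 in RO-3306. A share of 0 of 6 cells allows one of up to 45.9%. After every cell was thinned to 639000 reads, a Thbs1 count was found in 23 of 25 control cells (92%, 74.0% to 99.0%) and 15 of 34 RO-3306 cells (44.1%, 27.2% to 62.1%). At full depth the shares were 27 of 29 and 19 of 37. With at least 5 counts required per thinned cell they were 15 of 25 (60%, 38.7% to 78.9%) and 11 of 34 (32.4%, 17.4% to 50.5%), and those intervals overlap.

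Thbs1 counts were concentrated in few cells. Control cell B4, the deepest library with 6457215 counts, held 43% of the control counts, and RO-3306 cell C10 (letter C, number 10) held 26.5% of the RO-3306 counts. Without B4 the log2 ratio was -3.11. Without letter A it was -5.12, and without letter B it was -2.27. The direction was the same each time, while the size moved by more than 1.5 times.

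**Figure D2:**
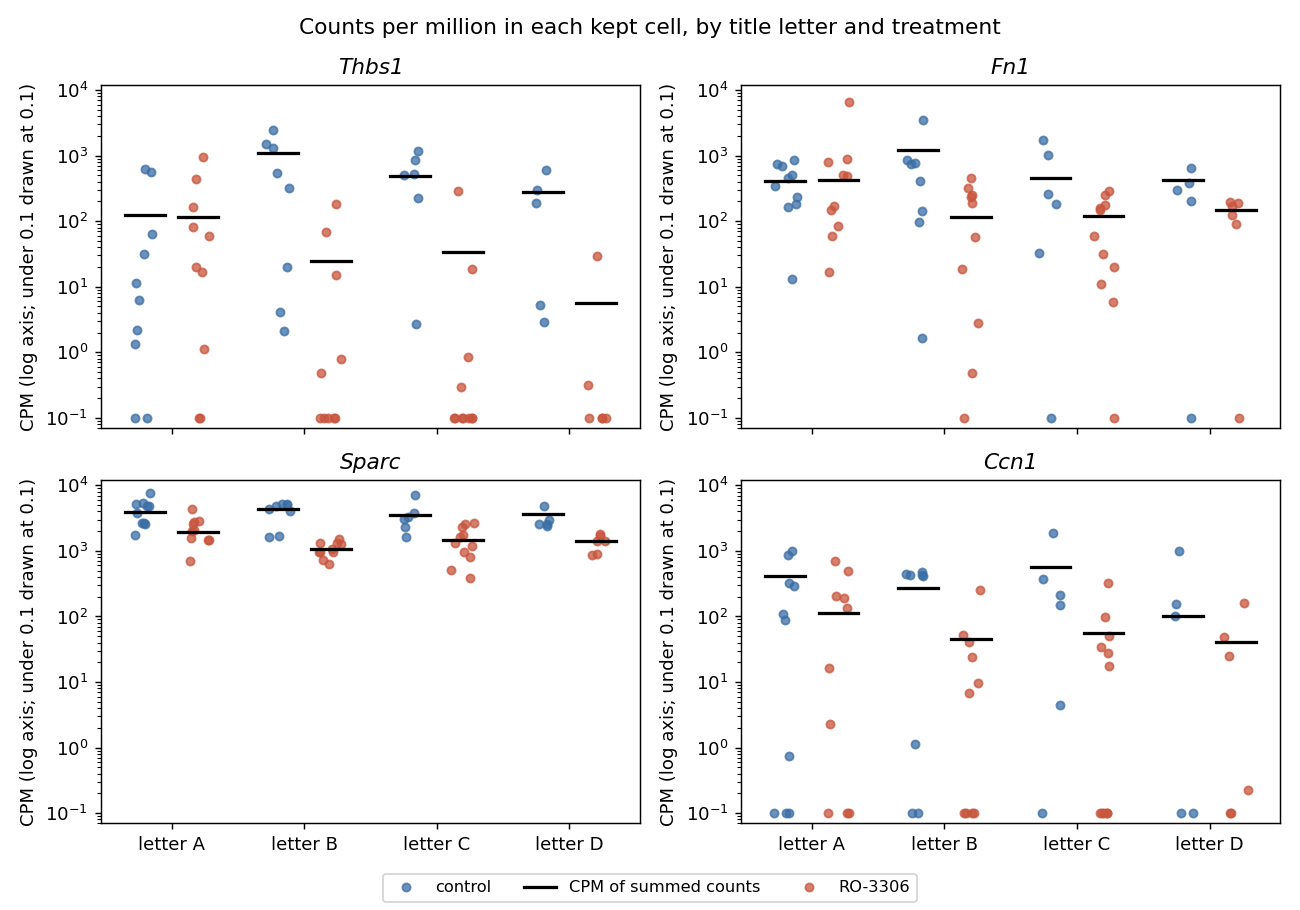
CPM in each kept cell (y axis, log scale, values under 0.1 drawn at 0.1) by title letter (x axis) for Thbs1, Fn1, Sparc and Ccn1, with control in blue and RO-3306 in red. Black bars are the CPM of summed counts, not means over cells. Sparc was present in every cell of both groups with a narrow spread, whereas Thbs1 and Ccn1 ran from 0 in some cells to over 100 CPM in others.

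Thbs2 (chromosome 17, 14885762 to 14914524), the closest relative of Thbs1, was not detected in control and had 0.5 counts in 1 RO-3306 cell, a read shared with another site. The Poisson upper limits are 0.0559 CPM in control and 0.0397 in RO-3306. Thbs4 and Comp had no count in any kept cell. Thbs3 was found in 2 cells of each group, with a pooled level of 0.0379 CPM for control and 1.54 for RO-3306. Its log2 ratio in letter D was 2.90, and Thbs1 stood at only 5.74 CPM in the RO-3306 cells of that letter. Pooled over letters, the thrombospondin signal was therefore mostly Thbs1, but this cannot be said of RO-3306 letter D.

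Fn1 (chromosome 1, 71624632 to 71692439, minus strand) was 4.0-fold lower in RO-3306 (3.93 to 4.07), at 182 CPM (179 to 185) against 729 CPM (722 to 735). Control letters A to D had 406, 1211, 451 and 425 CPM, and RO-3306 letters 422, 115, 118 and 148 CPM. As for Thbs1, B, C and D were lower under RO-3306 and A was not, with log2 ratios of 0.06, -3.39, -1.92 and -1.52. In A, 3413 of the 7412.5 RO-3306 counts came from cell A11. Unlike Thbs1, nearly all cells kept some transcript. After thinning, 24 of 25 control cells (96%, 79.6% to 99.9%) and 31 of 34 RO-3306 cells (91.2%, 76.3% to 98.1%) had a count. Cells at or over 100 CPM were 23 of 29 and 21 of 37.

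Both ends of the Fn1 range rested on single cells. Control B4 had 3526 CPM, while the next control B cell had 860.3. RO-3306 A11 had 6624 CPM, while the next RO-3306 A cell had 876. A11 was a shallow library (515218 counts, 3178 genes) with high values of several members, among them Thbs1 at 943 CPM, Spp1 at 3774 CPM and Fbn1 at 1356 CPM. Without B4 the Fn1 log2 ratio was -1.22, and without A11 it was -2.31. Leaving out letter A gave -2.86 and leaving out letter B gave -1.04. The mean over cells, which weights A11 like any other cell, was 534 CPM against 358 CPM, with a log2 ratio of -0.58. The medians over cells, 348 and 150.0 CPM, do not depend on such a cell.

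Sparc (chromosome 11, 55284985 to 55310906, minus strand) was the member with the highest level in control, also per kilobase, and the only one besides Spp1 found in every kept cell. Its level was 4032 CPM in control (4016 to 4047) and 1435 CPM in RO-3306 (1427 to 1443), 2.81-fold lower (2.79 to 2.83). Letters A to D had 3913, 4415, 3517 and 3650 CPM in control and 1923, 1060, 1460 and 1397 CPM in RO-3306. Each of the 4 control values lay above each of the 4 RO-3306 values, for which no share over all genes was computed. The log2 ratios were -1.02, -2.06, -1.27 and -1.38.

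Every kept cell had Sparc counts, 29 of 29 and 37 of 37, and all were over 100 CPM. The lowest, median and highest control cells were 1782, 4338 and 7619 CPM in A, 1660, 4589 and 5179 in B, 1616, 3157 and 7087 in C, and 2384, 2585 and 4866 in D. For RO-3306 they were 707, 2050 and 4383 in A, 639.6, 1032 and 1501 in B, 384, 1320 and 2649 in C, and 876, 1409 and 1787 in D. In letters B and D the highest RO-3306 cell lay under the lowest control cell, while in A and C the cells overlapped. The share of all genes with such a separation was not computed, and Sparc was chosen on this contrast. No single cell or letter moved the ratio by more than 1.5 times when left out. Fractional counts occurred in 56.3% of the libraries with Sparc, so part of its reads also matched other sites.

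Spp1 (chromosome 5, 104582977 to 104588919, plus strand) had a higher level than Sparc in RO-3306, also per kilobase, and the pooled ratio closest to 0 of the 8. Its level was 2094 CPM in control (2083 to 2105) and 1506 CPM in RO-3306 (1498 to 1514), 1.39-fold lower (1.38 to 1.40). Letters A to D had 1171, 2279, 1852 and 4790 CPM in control and 1683, 639, 1509 and 2251 CPM in RO-3306. Spp1 was thus higher under RO-3306 in A and lower in B, C and D, with log2 ratios of 0.52, -1.83, -0.29 and -1.09. All kept cells had a count in both groups. Control cells spread widely, from 304 CPM in A to 12170 CPM in B8, and RO-3306 cells from 3.39 CPM in B to 4125 CPM in D9.

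Ccn1 (chromosome 3, 145352726 to 145355740, minus strand) was lower in each letter. Its level was 339.8 CPM in control (335 to 344) and 60.6 CPM in RO-3306 (59.1 to 62.2), 5.60-fold lower (5.44 to 5.77). Letters A to D had 412, 269, 564 and 103 CPM in control and 112, 45.4, 56.1 and 41.3 CPM in RO-3306. The log2 ratios of -1.86, -2.54, -3.31 and -1.30 all lay beyond the shift between scalings. This is the gene whose promoter, printed above, holds the TEAD core.

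The groups differed more in how many cells had much Ccn1 than in how many had any. After thinning, 17 of 25 control cells (68%, 46.5% to 85.1%) and 19 of 34 RO-3306 cells (55.9%, 37.9% to 72.8%) had a count, and these intervals overlap. Of all kept cells, 17 of 29 in control (58.6%, 38.9% to 76.5%) and 8 of 37 in RO-3306 (21.6%, 9.83% to 38.2%) were at or over 100 CPM. That limit was chosen after the values were seen, and no test was made. In letter A the cell values overlapped throughout, with 5 of 10 cells over 100 CPM in each group and a highest cell of 984 CPM in control and 691 in RO-3306. In B the median control cell had 419 CPM against 8.22 CPM, and in C 181 against 17.3. In D it had 100.04 CPM against 12.6. Leaving out any 1 cell or letter left the log2 ratio between -2.73 and -2.19.

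Ccn2 (chromosome 10, 24471340 to 24474581, plus strand) was found in fewer cells. Its level was 119 CPM in control (117 to 122) and 11.2 CPM in RO-3306 (10.5 to 11.9), 10.7-fold lower (9.99 to 11.4). Letters A to D had 182, 121, 28.2 and 0.943 CPM in control and 0, 30.4, 0 and 15.8 CPM in RO-3306. With 3 counts as the floor of each letter's sum, Ccn2 was at least 1066-fold lower in A and at least 287-fold lower in C. In D it was higher, with a log2 ratio of 3.12. In letter A, 7 of 10 control cells had a count, and cells A9 and A3 held 1853.8 and 1682.3 of the 4513.2 control counts. Letter D rests on 7 counts in 1 of 5 control cells and 349 counts in 2 of 6 RO-3306 cells. All 226 control counts of letter C came from 1 of 6 cells, C7, without which neither group has a count there and the bound is gone. After thinning, a count was found in 11 of 25 control cells (44%, 24.4% to 65.1%) and 5 of 34 RO-3306 cells (14.7%, 4.95% to 31.1%). Of the RO-3306 counts 64.1% came from cell B11, and without it the log2 ratio was -4.55. Without letter A the ratio was -2.48 and without letter B -4.32.

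Postn (chromosome 3, 54266688 to 54298462, plus strand) and Fbn1 (chromosome 2, 125142514 to 125348417, minus strand) were low and patchy. Postn had 53.7 CPM in control (51.9 to 55.5) and 28.8 CPM in RO-3306 (27.7 to 29.9), and 8 of 29 and 7 of 37 cells had any. By letter it was 138, 2.52, 1.37 and 5.79 CPM in control and 15.8, 0, 73.0 and 7.30 CPM in RO-3306, so that it was lower in A and B and higher in C and D. Control cell A7 held 49.5% of the control counts and RO-3306 cell C9 60.7% of the RO-3306 counts. Without A7 the log2 ratio of -0.88 became 0.05, and without C9 it became -2.10. Without letter A it was 3.08 and without letter C -2.94. No direction can be given for Postn.

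Fbn1 had 46.8 CPM in control (45.2 to 48.5) and 19 CPM in RO-3306 (18.1 to 19.9), 2.47-fold lower (2.33 to 2.62), and 13 of 29 and 14 of 37 cells had any. By letter it was 40.1, 22.1, 89.6 and 109 CPM in control and 54.3, 17.8, 13.2 and 0.0227 CPM in RO-3306, the last from 0.5 counts in 1 cell. It was thus higher in A, where cell A11 held 698.5 of the 952.5 RO-3306 counts, and lower in the other letters. The call was not firm. With the mean over cells as the level, Fbn1 stood at 49.1 CPM against 49.6 CPM (log2 ratio 0.01), and cell A11 alone had 1356 CPM. Without A11 the pooled log2 ratio was -1.94, without letter A -2.14, and without letter D it was -0.63, short of 2-fold.

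Tnc (chromosome 4, 63878022 to 63965554) had 0 counts in all kept cells, which gives Poisson upper limits of 0.0559 CPM in control and 0.0397 in RO-3306. The gene 8030451A03Rik covers 43.9% of its span, and by the counting tool's default a read that lies in both genes is not counted. The rest of its span had no count either.

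**Figure D3:**
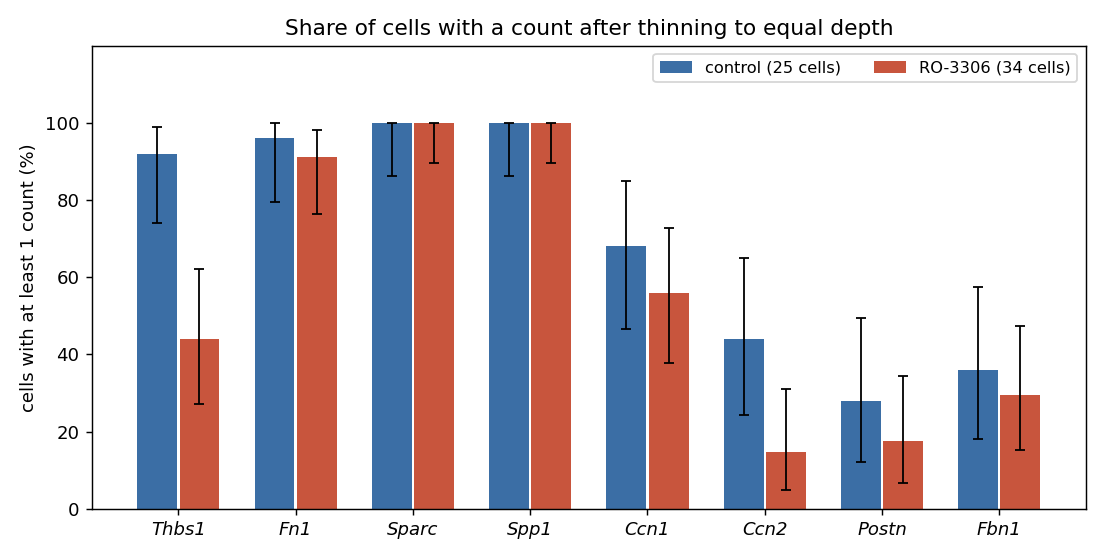
Share of cells with at least 1 count of each member (y axis, percent) after thinning to equal depth, in control (blue) and RO-3306 (red). Error bars are exact binomial 95% intervals, which treat the cells as independent draws and do not cover differences between cultures. Thbs1 was found in 92% against 44.1% of cells at 1 count, and in 60% against 32.4% at a minimum of 5 counts, where the intervals overlap. Sparc and Spp1 were found in every cell.

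Levels can be compared between genes only per length. Per kilobase of mRNA, control cells had 1753 CPM of Sparc, 1389 of Spp1, 168 of Ccn1, 97.4 of Thbs1 and 87.6 of Fn1. Then came Ccn2 at 47.9, Postn at 16.7 and Fbn1 at 3.91 CPM per kilobase. In RO-3306 Spp1 (999) led Sparc (624), and Ccn1 (30) and Fn1 (21.9) followed, while Thbs1 (6.97) came after Postn (8.98). Summed over the members, control cells had 7983 CPM and RO-3306 cells 3283 CPM. The lowest, median and highest cells were 3176, 6867 and 15030 CPM in control and 671, 2750 and 16023 CPM in RO-3306, so the groups overlapped. Sparc and Spp1 made up 50.5% and 26.2% of the control sum and 43.7% and 45.9% of the RO-3306 sum. The share of Thbs1 was 7.14% and 1.24%.

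Gene length moved with the ratios. Log2 ratio and mRNA length had a Spearman correlation of -0.361 over 9115 genes, as a description across genes that are not independent. The geometric mean mRNA length under a cell's reads had a median of 2095 bases in 25 control cells (1952 to 2470) and 1849 in 34 RO-3306 cells (1648 to 2064). Several members are long, with mRNAs of 5848 bases for Thbs1, 8315 for Fn1 and 11971 for Fbn1. Genes of like length had a median log2 ratio of -0.78 for Thbs1, -0.89 for Fn1 and Fbn1, -0.19 for Sparc and 0.08 for Ccn1. With that median subtracted, the ratios were -3.12 for Ccn2, -2.99 for Thbs1, -2.55 for Ccn1, -1.30 for Sparc, -1.10 for Fn1, -0.64 for Spp1, -0.55 for Postn and -0.37 for Fbn1. The number at or under -1 was then 5 of 8 in place of 6, and Fbn1 was the one that no longer reached it.

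**Figure D4:**
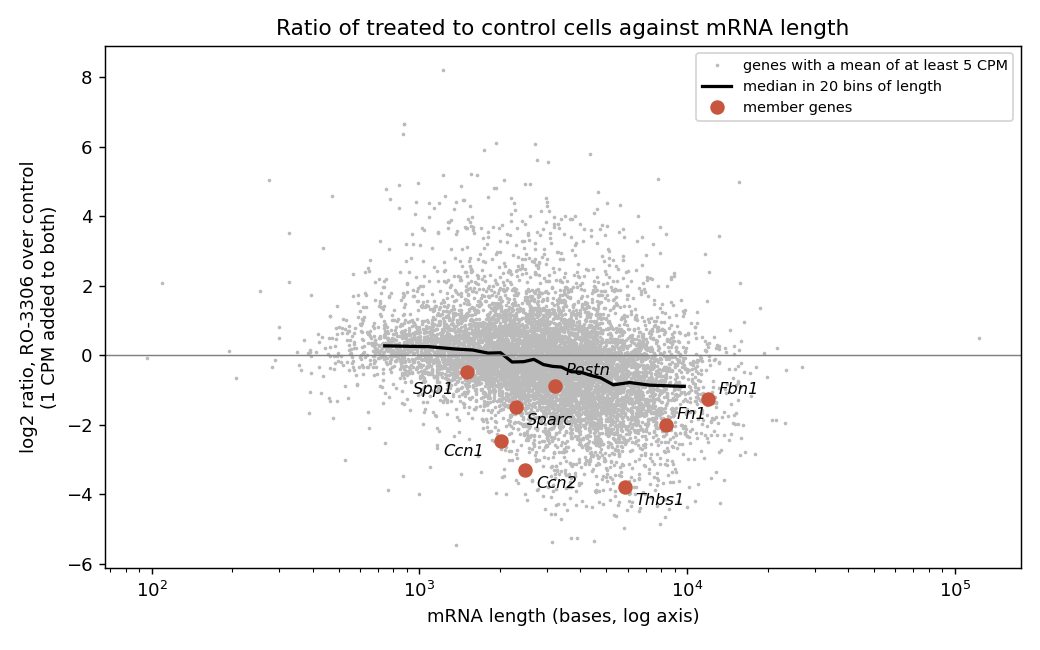
Log2 ratio of RO-3306 over control (y axis, 1 CPM added to both) against mRNA length (x axis, log scale) for the 9115 genes with a length and a mean of at least 5 CPM (grey). The black line is the median in 20 bins of length and red points are the members. Fbn1 lies nearest to the line among the long members, while Thbs1, Ccn1 and Ccn2 lie 2.5 or more log2 units below it.

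Across single cells at equal depth the members varied together only in part. In control (25 cells) Spearman's rho was 0.37 for Thbs1 with Fn1, 0.39 for Fn1 with Spp1, 0.37 for Fn1 with Sparc and -0.08 for Sparc with Ccn1. In RO-3306 (34 cells) the highest value was 0.57 for Fn1 with Sparc, followed by 0.48 for Thbs1 with Sparc. The labels name no culture behind the cells of a group, so the cells are not replicates and these values are descriptions. Sparc also moved with the quality measures of the cells. Its rho with the mitochondrial share was -0.45 in control and -0.44 in RO-3306, and with the number of genes it was 0.14 and 0.52. Their part in the Sparc difference was not tested.

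For the genes most like 4 of the members, the 3 highest rho values over control cells were taken among 2955 genes of at least 50 CPM with a count in 50% of the cells. For Thbs1 they were Usp16 (0.72), Ctps (0.67) and Esf1 (0.64), with rho of -0.02, 0.39 and 0.02 over RO-3306 cells. For Fn1 they were Serpinf1 (0.65), Cd82 (0.61) and Col5a2 (0.58), with 0.20, 0.13 and 0.36 over RO-3306 cells. For Ccn1 they were Mdm2 (0.69), Fermt2 (0.63) and Rbmx2 (0.61), with -0.37, 0.34 and 0.06. For Sparc they were Cops8 (0.73), Ghitm (0.65) and Naxe (0.62), with -0.07, 0.37 and 0.38. These 12 genes were picked for their values in control cells, so the lower rho of each in RO-3306 cells is not a finding.

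Receptors of the members were measured next, from a list of 19 genes of which 12 reached 5 CPM. Of these 11 had a lower and 1 a higher ratio, 4 were at least 2-fold lower, none was 2-fold higher, and the median was -0.74 beside -0.22 for all genes. The background for 2-fold lower is 24.2% of all genes, and for 2-fold higher 12.2%, here and for the lists that follow. Among all genes a ratio below 0 is also the commoner sign, so counts of lower genes alone do not set a list apart. With the median of like mRNA length subtracted, the list median was -0.15. Itga5, the fibronectin-binding integrin chain, had 90.7 CPM in control and 22.9 in RO-3306 (log2 ratio -1.94), but was higher in letter C (1.07). Its partner Itgb1 had 179.8 and 93.2 CPM (-0.94), also higher in C (2.20), and Itga6, a chain of laminin receptors, 18.4 and 4.71 CPM (-1.77). Itga6 had counts in 4 control and 6 RO-3306 cells and was lower in letter B only (-1.82), with 3.09, 0.05 and 0.29 in A, C and D. Sdc1, a heparan sulphate proteoglycan, was the 1 receptor at least 2-fold lower that was lower in all 4 letters (-1.42), and is named after its values were seen. Cd47, the thrombospondin receptor, had 556 and 499 CPM (-0.15), Itgav 88.4 and 49.4 CPM (-0.83), and Cd44, the receptor of osteopontin and hyaluronan, 65.2 and 77.9 CPM (0.25). The ratio of Cd47 is smaller than the shift between scalings. That of Cd44 would grow with the shift, but Cd44 was lower in 2 of the 4 letters.

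YAP-TEAD target genes other than the members numbered 21, and 17 reached 5 CPM. Of these 13 were lower and 4 higher, 7 were at least 2-fold lower and 1 was 2-fold higher, with a median of -0.87. The median was -0.81, -0.92 and -0.76 in letters A, B and C but 1.64 in D, and -0.08 over all letters with like length subtracted. Amotl2, a scaffold of the Hippo pathway, had 281 CPM in control and 72.1 in RO-3306 (-1.95) and was lower in all 4 letters, as were Ajuba and Tgfb2. Wwc1 had 129.5 and 33 CPM (-1.94) but was higher in letter D. At the other end stood Lats2, a kinase of the pathway, with 15.5 and 21.5 CPM (0.45), higher in all 4 letters. Gadd45a, which is also a p53 target, had 62.6 and 134 CPM (1.08), though lower in letter A (-1.02). The list therefore did not move as one.

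Of 9 genes for YAP, TEAD and SRF factors and cofactors, 7 reached 5 CPM and all 7 had a ratio below 0, with 5 at least 2-fold lower and a median of -1.31. None of the 5 was lower in all 4 letters, and the list median was above 0 in letter D (1.31). With like length subtracted the pooled median was -0.61. Yap1 had 15.5 CPM in control and 6.55 in RO-3306 (-1.13) and Wwtr1, which encodes TAZ, 88.4 and 34.5 CPM (-1.33). Mrtfa and Mrtfb, cofactors of SRF, had 37.8 and 11.4 CPM (-1.65) and 11.6 and 3.44 CPM (-1.51). Srf itself had 44.9 and 34.7 CPM (-0.36) and Tead2 28.8 and 26 CPM (-0.14). Srf was lower in letter C only (-2.52), with 0.57, 0.02 and 2.24 in A, B and D. Tead2 was lower in A and C and higher in B and D, and its pooled ratio is smaller than the shift between scalings.

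Elastic fibre and microfibril genes, partners of Fbn1, numbered 16, with 8 at 5 CPM or more. Of these 7 were lower and 1 higher, 4 at least 2-fold lower and 1 at least 2-fold higher, and the median was -0.84, or -0.15 with like length subtracted. In letter A the median was 0.04, in B -3.02, in C -0.46 and in D -0.59. Emilin1, an elastic fibre glycoprotein, had 21.6 CPM in 6 of 29 control cells and 0.14 CPM in 2 of 37 RO-3306 cells (-4.31). Ltbp3, a latent TGF-beta binding protein, had 75.6 and 18.7 CPM (-1.96) and was lower in all 4 letters. Ltbp2 had 11.9 and 11.8 CPM (-0.02), the sum of opposite letter ratios (1.07, -3.03, 4.97 and -4.30 in A to D) from 6 control and 9 RO-3306 cells. Mfap5, a microfibril protein, had 0.03 CPM in 1 control cell and 11.9 CPM in 13 of 37 RO-3306 cells. It was higher in all 4 letters, with 4.23, 2.09, 3.69 and 4.01 in A to D. The share of all genes at least 2-fold higher and higher in all 4 letters was not computed.

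Relatives of the members numbered 19, and 3 reached 5 CPM. Ccn4 had 404 CPM in control and 217 in RO-3306 (-0.90), and Ccn5 had 337 and 220.4 CPM (-0.61). Ecm1, a secreted matrix glycoprotein, had 98.1 and 204 CPM (1.05). The median was -0.61, or -0.05 with like length subtracted. Thbs4, Comp, Smoc2, Spock1 and Vtn had no count in any kept cell. Detected thrombospondin, CCN and SPARC family transcripts were thus mainly Thbs1, Sparc, Ccn1, Ccn2, Ccn4 and Ccn5.

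Proteases that cut members and their inhibitors numbered 11, with 6 at 5 CPM or more and a median of -0.41, or -0.22 with like length subtracted. Of these 4 were lower and 2 higher, with 1 at least 2-fold lower and 1 at least 2-fold higher. Mmp2, a gelatinase, had 60.5 and 18.6 CPM (-1.65), with -1.95 and -1.52 in letters A and B but 2.73 and 2.83 in C and D. Its activator Mmp14 had 26.1 and 14 CPM (-0.86) and was higher in letter A (0.93). Bmp1, a procollagen protease, had 22.9 and 26.5 CPM (0.20). Mmp3 had no count in control and 10.8 CPM in RO-3306, all from 2 cells. Timp1 and Timp3 had no count in any kept cell, but each lies wholly (100% of its span) within another gene, Syn1 and Syn3, so a count of 0 says nothing about them here.

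**Figure D5:**
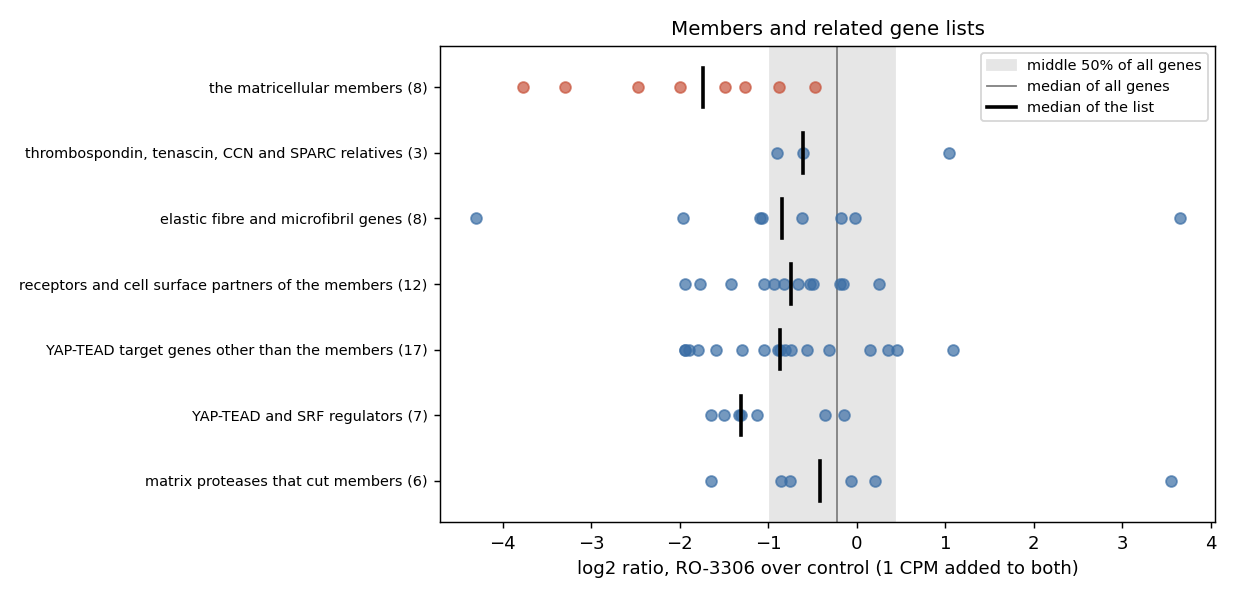
Log2 ratio of RO-3306 over control (x axis, 1 CPM added to both) for each gene of at least 5 CPM in the members and in 6 related lists (rows, with the number of genes). Black ticks are list medians, the grey band spans the quartiles of all genes (-0.98 and 0.43) and the grey line is their median (-0.22). The medians run from -0.41 for proteases to -1.31 for YAP-TEAD and SRF regulators and -1.74 for the members, which were chosen on this ratio.

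Markers of other cell types were read for their level beside the members. Fibroblast and mesenchymal markers, none of them a member, were mostly lower too in the pooled cells. Of 9 at 5 CPM or more, 8 were lower and 1 higher in RO-3306, with a median of -0.94, and their summed level was 5761 CPM in control and 3231 in RO-3306. Col1a1 had 714 and 127 CPM (-2.48) and Col3a1 603 and 83.6 CPM (-2.84), and both were lower in all 4 letters. Vim had 2427 and 1264 CPM (-0.94) and was also lower in all 4, while Dcn, a proteoglycan of fibroblasts, had 834 and 873 CPM (0.07). At least 2-fold lower were 4 of the 9 (background 24.2%), and 2 of these in all 4 letters (6.43%). Others changed sign between letters. Col1a2 (4.40 and 2.88) and Acta2 (0.32 and 1.18) were higher in B and D, Pdgfra in C (4.58) and Cdh2 in B (2.08). No median with like length subtracted was computed for the markers. Pooled values alone cannot tell fewer cells of a kind from less RNA per cell. Cell by cell, Vim and Col1a1 had counts in all 29 control cells and all 37 RO-3306 cells. Col3a1 was found in 26 and 29 of them. For the summed markers the median control cell stood at 5218 CPM, the median RO-3306 cell at 2879. The lowest cells stood at 1093 and 1056 CPM. Whether fewer cells or a lower level per cell had a part in the members' difference was not tested.

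Macrophage markers were mixed. Of 10, Cd68, Cd14 and Lyz2 reached 5 CPM, and all 10 together held 58.6 CPM in control and 381 in RO-3306. Cd68, a lysosomal membrane protein, accounted for most of this, with 0.0757 CPM in control and 319.8 in RO-3306. The defining genes Csf1r, Adgre1 and Ptprc were at 1.70 CPM or less in each group, and Marco and C1qa had no count. Alveolar type I markers summed to 1170 CPM in control and 1009 in RO-3306, nearly all from Cav1, and their median ratio was -0.21. Epithelial, endothelial, type II and platelet lists summed to 1.78, 0.622, 23.5 and 5.06 CPM in control and 0.978, 0.311, 27.7 and 28.6 CPM in RO-3306. For the type II genes at 5 CPM the median was -0.15, and for the platelet genes, Itga2b and Ppbp, 2.63. Ppbp had no count in control and came from 3 RO-3306 cells.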

How the data were processed

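The values are expected counts per gene, which per the file headers the authors made with featureCounts 2.0.3, 1 file a cell. Reads were counted over whole gene spans of the RefSeq annotation of GRCm39, introns included, and multi-mapping reads gave each site an equal fraction. The headers give no option for strand or for reads over more than 1 gene. The tool's default then ignores strand and drops a read that lies in 2 spans. Per the submitters' processing notes, FastQC and STAR were also used. Parameters of the alignment are not given in the sources used here. Per the labels' protocols, libraries came from SMART-seq v4 cDNA, sequenced from one end for 150 bases, with no molecular identifiers named, so counts may include PCR copies.

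Counts were summed over kept cells and scaled to CPM. A count was called fractional when over 1e-06 from a whole number, and counts were rounded for intervals and thinning. Thinning to 639000 reads, percentile 10 of kept totals, left out 4 control and 3 RO-3306 cells. Shares have exact Clopper-Pearson intervals. Genes needed a mean of 5 CPM over the groups. mRNA length is that of the longest coding transcript by symbol in GENCODE M21, found for 97.2% of those genes. Python 3.11.15, numpy 2.4.6, pandas 2.3.3, scipy 1.17.1 and matplotlib 3.10.9 were used, and, for scaling alternatives only, edgeR 4.0.16 and DESeq2 1.42.0 in R 4.3.3. The pooled ratio was tested on simulated data.

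The members and lists were chosen with earlier results of these data known. All members are named. From each list come the 2 genes of highest and the 2 of lowest ratio at 5 CPM or more, with main receptors and regulators (Yap1, Wwtr1, Cd47, Cd44, Itgb1, Itgav and Itga5). Sdc1, Ajuba, Tgfb2 and the markers were named after their values were seen. The planned comparison of member protein sequences was not run. Libraries under the minimum of counts or genes entered no comparison.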

Additional observations from a re-analysis of the deposited data

Results flagged for a closer look

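Of the libraries under the minimum of counts or genes, 19 were control and 11 RO-3306, and they entered no main comparison. In the RO-3306 ones, 3 members stood above the Poisson interval of the control ones. Fn1 had 560 CPM (519 to 606) against 64.5 CPM (40.4 to 97.6), and 507.5 of its 651.5 counts came from library D5. Sparc had 133 CPM (113 to 156) against 52.8 CPM (31.3 to 83.4). Spp1 had 98.1 CPM (80.9 to 118) against 29.3 CPM (14.1 to 53.9), with 96 of 114 counts from D5. Thbs1 stood the other way, with 1 count in RO-3306 (0.860 CPM) and 12 in control (35.2 CPM). The summed counts behind these values were 341166 in control and 1162603 in RO-3306, and whether these wells held a cell was not tested.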

How the results depend on the processing

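Cells, not cultures, were sequenced, and no test was made, so the labels' numbers were not used as pairs. No paired analysis was possible because the comparison rests on 1 sample a group. The number of members at least 2-fold lower was 6 and stayed between 5 and 7 under all alternatives run, but the members behind it changed. With the mean over cells, Fn1 (-0.58) and Fbn1 (0.012) fell short and Postn (-1.51) entered. Postn also entered with cells thinned before summing (-1.54), without letter B (-1.16) and without letter C (-2.94), among others. The median of the members and the ratio of Thbs1 kept their sign in all alternatives. The median, -1.74, was -1.53 with TMM factors, -1.51 with DESeq2 size factors, -1.41 with the mean over cells, -1.60 with letters weighted equally, -1.20 with the median of like mRNA length subtracted and -1.37 with no filter on low values, where the members at 0 enter. Thbs1, at -3.77, was -3.57 with TMM factors, -3.54 with DESeq2 size factors, -3.65 with 5 CPM added, -2.68 with the mean over cells, -3.43 with letters weighted equally, -3.29 with cells thinned before summing and -2.99 with like length subtracted. Leaving out 1 letter or 1 cell put the count between 5 and 7, the median between -2.31 (without letter A) and -1.33 (without control cell B4), and Thbs1 between -5.12 (without letter A) and -2.27 (without letter B). Fbn1 reversed, from -1.26 to 0.012, with the mean over cells. Over 17 alternatives each, Fn1, Sparc, Spp1, Ccn1 and Ccn2 stayed below 0, Fbn1 was below 0 in 16 and Postn in 15. With like length subtracted, list medians moved from -0.61 to -0.05 for relatives, -0.84 to -0.15 for elastic fibre genes, -0.74 to -0.15 for receptors, -0.87 to -0.08 for YAP-TEAD targets, -1.31 to -0.61 for regulators and -0.41 to -0.22 for proteases. With no filter on low values, relatives and proteases came to 0, and in the 19 alternatives each no list median was above 0. Of 40 alternative shares of cells with a count, 1 fell outside the main interval, that of control cells with Thbs1, which went from 92% to 60% when at least 5 counts were required. Depth limits what can be said of Thbs2 and Tnc, and the number of cells, with 5 control cells in letter D, limits values by letter.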
